A study of Mus musculus with 16 samples.

Results

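Transcripts of 10 surface proteins were followed in DN3 thymocytes. T cells display most of these proteins in quantity at or after the later stages of development in the thymus, but CD27 and CD44 also appear earlier. The genes are the coreceptor chains Cd4, Cd8a and Cd8b1, the scavenger-receptor proteins Cd5 and Cd6, and the adhesion molecule Cd2. The others are the costimulatory receptors Cd27 and Cd28, the activation marker Cd69 and the hyaluronan receptor Cd44. The rule was by symbol and used no measured value, but the 10 were chosen with earlier results of these data known. They are 10 of the 22114 genes of both deposited count tables. Symbols of the 10 genes occur on 11 rows, because a further Cd28 row (ENSMUSG00000102412) was at 0 in every library, and that row was not used. All 10 genes passed the filter on low counts in both tables.

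DN3 thymocytes are immature T-cell progenitors that lack CD4 and CD8, carry CD25 and have lost CD44. Total DN3 cells came from C57BL/6 mice of 4 genotypes: wild-type (3 libraries), p21-/- (p21-deficient, lacking the cell-cycle inhibitor encoded by Cdkn1a, 2 libraries), Lmo2Tg (carrying a CD2-Lmo2 transgene, which CD2 sequences drive in the T lineage, 2 libraries) and Lmo2Tg;p21-/- (both alleles, 2 libraries). In a separate experiment, H2B-GFP;Lmo2Tg mice, which carry the TetOP-H2B-GFP KI/+ allele beside the transgene, received doxycycline for 6 weeks and were chased for 2 weeks. DN3 cells that still held the label (GFPhi) were compared with cells that had diluted it by dividing (GFPlo), with 3 libraries each. All GFPhi and GFPlo cells therefore carried the transgene, and cells that had never taken up the label were excluded. GFPhi and GFPlo cells were profiled from mice 2 months old. These came from 3 independent cohorts, and the paper calls the samples of this experiment pooled. Total DN3 cells of the 4 genotypes came from mice aged 6 weeks. For global expression the methods describe pools of sorted cells from 3 to 5 mice aged 6 weeks, without naming libraries. The spread between GFPhi or GFPlo libraries is thus one between pools, and that between genotype libraries may be. The 2 Lmo2Tg columns carry short names (L2 and L3) that are also the descriptions of 2 GFPlo samples, and they were read as Lmo2Tg because they stand with the other genotypes and L marks the transgene in the Lmo2Tg;p21-/- names, so each Lmo2Tg comparison rests on that reading. The sorting antibodies bind CD4, CD8 and CD44, so for Cd4, Cd8a and Cd44 cells with surface protein were gated away, and the transcript level is that of the cells left.

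In normal development DN3 cells rearrange the T-cell receptor beta chain, pass a checkpoint called beta-selection, and only then switch on Cd8 and Cd4 to become double-positive thymocytes. CD5 dampens signals from the receptor and increases with their strength, CD6 is its close relative, CD2 and CD28 give adhesion and costimulation in mature T cells, and CD27, a receptor of the TNF family, already appears on DN3 cells that pass beta-selection. CD69 is among the most rapid surface proteins to appear after receptor signalling, whereas CD44 marks the earliest thymic progenitors and returns on activated and memory T cells. LMO2 is a bridging protein that binds no DNA itself and joins E-box-binding and GATA factors in one complex. It is normally shut off in committed T cells.

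Total counts per library ranged from 13864936 to 16837667 for the genotypes and from 26861394 to 31106213 for GFPhi and GFPlo. Counts for the 10 genes lay between 24 and 3940 per library in the genotype table and between 69 and 11361 in the GFP table. The lowest count was that of Cd4 in the genotype table and that of Cd28 in the GFP table. Levels are given as CPM, read counts scaled to a common library size after TMM normalization, which corrects for library composition, and levels of different genes are compared only per kb of exon. Changes were tested with edgeR's quasi-likelihood test over all genes of a table, and a gene was called at a Benjamini-Hochberg adjusted p below 0.05. Lmo2 counts were between 1 and 5 in libraries without the transgene and between 560 and 1772 in the 4 total DN3 libraries with it. Cdkn1a lay between 36.5 and 49.0 CPM in wild-type and at 14.3 and 17.7 CPM in p21-/- libraries, and between 26.3 and 32.8 CPM in Lmo2Tg against 4.354 and 3.502 CPM in Lmo2Tg;p21-/- libraries. The DN3 markers Il2ra, which encodes CD25, and Ptcra, the pre-T alpha chain, were detected in all 15 libraries, Il2ra at no less than 1411 CPM. Ptcra was at 134 to 186 CPM in the wild-type and at 26.0 and 55.7 CPM in the Lmo2Tg libraries. GFPhi replicate 3 stood apart from its group. Its log2 CPM correlated across genes at 0.954 and 0.952 with GFPhi replicates 1 and 2, which correlated at 0.989 with each other, and it held Lmo2 at 285 CPM against 53.8 and 29.5 CPM. Cdkn1a was at 35.8 and 29.9 CPM in GFPhi replicates 1 and 2. In GFPhi replicate 3 Cdkn1a was at 6.56 CPM, below the 8.08 to 12.0 CPM of GFPlo libraries. Results on GFPhi cells are therefore given with and without replicate 3.

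Of the 10 genes, 5 lie on chromosome 6. Cd8b1 (ENSMUSG00000053044, chr6:71322788-71337494, plus strand) and Cd8a (ENSMUSG00000053977, chr6:71373427-71379173, plus strand) are neighbours, 35.9 kb apart in GRCm38. Cd4 (ENSMUSG00000023274, chr6:124864692-124888221), Cd27 (ENSMUSG00000030336, chr6:125232622-125237010) and Cd69 (ENSMUSG00000030156, chr6:129267325-129275436) lie further along it, all on the minus strand. Cd5 (ENSMUSG00000024669, chr19:10717116-10739002) and Cd6 (ENSMUSG00000024670, chr19:10789341-10830058) are also neighbours, 50.3 kb apart on the minus strand of chromosome 19. Cd2 (ENSMUSG00000027863, chr3:101275899-101287939, minus strand), Cd28 (ENSMUSG00000026012, chr1:60716800-60773359, plus strand) and Cd44 (ENSMUSG00000005087, chr2:102811141-102901665, minus strand) stand alone on their chromosomes. In GENCODE M21, Cd27 alone of the 10 had exon sequence shared with another gene, the microRNA gene Mir8113. Median changes of all tested genes on chromosomes 1, 2, 3, 6 and 19 between Lmo2Tg and wild-type ran from -0.03 to 0.01 on the log2 scale.

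Promoter windows for 4 of the 10 genes, Cd8a, Cd5, Cd27 and Cd44, were found among the 32851 windows of a RefSeq table (GRCm38.p6), each reaching from 250 bases before to 50 after a gene start. Those of Cd5 and Cd8a are shown because both genes rose more than 2-fold with the transgene, with or without p21. Capitals mark the E-box letters CAGCTG and CAGGTG, searched on both strands, so that CACCTG is CAGGTG read from the other strand. Cd5 is chr19:10739003-10739224 on the minus strand and ends where the annotated exons begin, and Cd8a is chr6:71373177-71373430 on the plus strand and ends with an E-box that crosses the start.
Cd5: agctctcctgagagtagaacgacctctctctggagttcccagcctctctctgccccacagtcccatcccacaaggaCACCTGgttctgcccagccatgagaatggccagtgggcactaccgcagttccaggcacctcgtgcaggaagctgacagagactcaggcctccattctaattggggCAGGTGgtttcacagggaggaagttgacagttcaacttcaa
Cd8a: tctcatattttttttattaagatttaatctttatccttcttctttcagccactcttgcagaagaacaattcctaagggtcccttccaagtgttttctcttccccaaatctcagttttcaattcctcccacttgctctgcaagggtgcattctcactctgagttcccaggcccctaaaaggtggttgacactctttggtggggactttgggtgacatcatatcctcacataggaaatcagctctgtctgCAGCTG
CAGGTG begins 174 and 69 bases before the RefSeq start of Cd5, and CAGCTG begins 2 bases before that of Cd8a. Of all windows in the table, 20.2% held CAGGTG and 16.3% held CAGCTG. The RUNX letters TGTGGT, held by 16.8% of windows, were in none of the 4 member windows, and the GATA letters AGATAA, held by 11.2%, were in that of Cd44 only, from 233 bases before its start. These matches describe the letters and say nothing of binding.

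In wild-type DN3 cells the members spanned about 2 orders of magnitude per length. Cd27 was highest, at 69.8 ± 6.73 CPM per kb (SD, n = 3), and stood clear of the next gene, Cd8b1, at 9.19 ± 0.662 CPM per kb. Cd6 at 5.53 and Cd5 at 4.94 CPM per kb followed with overlapping ranges, then Cd69 at 2.83, Cd2 at 2.39 and Cd8a at 2.37, which did not separate from each other. Cd44 at 1.30 and Cd28 at 1.27 CPM per kb also overlapped, and Cd4 was lowest at 0.715 ± 0.0333 CPM per kb. The chain that gives CD8 its beta subunit was thus higher per length than the alpha chain in wild-type cells. In Lmo2Tg libraries Cd27 remained highest, at 88.2 CPM per kb, but Cd2 stood in the next place at 39.6 ± 5.71 CPM per kb (n = 2). Cd69 at 19.9, Cd6 at 18.6, Cd8b1 at 17.1 and Cd5 at 13.0 CPM per kb followed, each overlapping its neighbour in that order, and Cd28 at 1.44 and Cd4 at 0.839 CPM per kb were again the lowest.

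**Figure D1:**
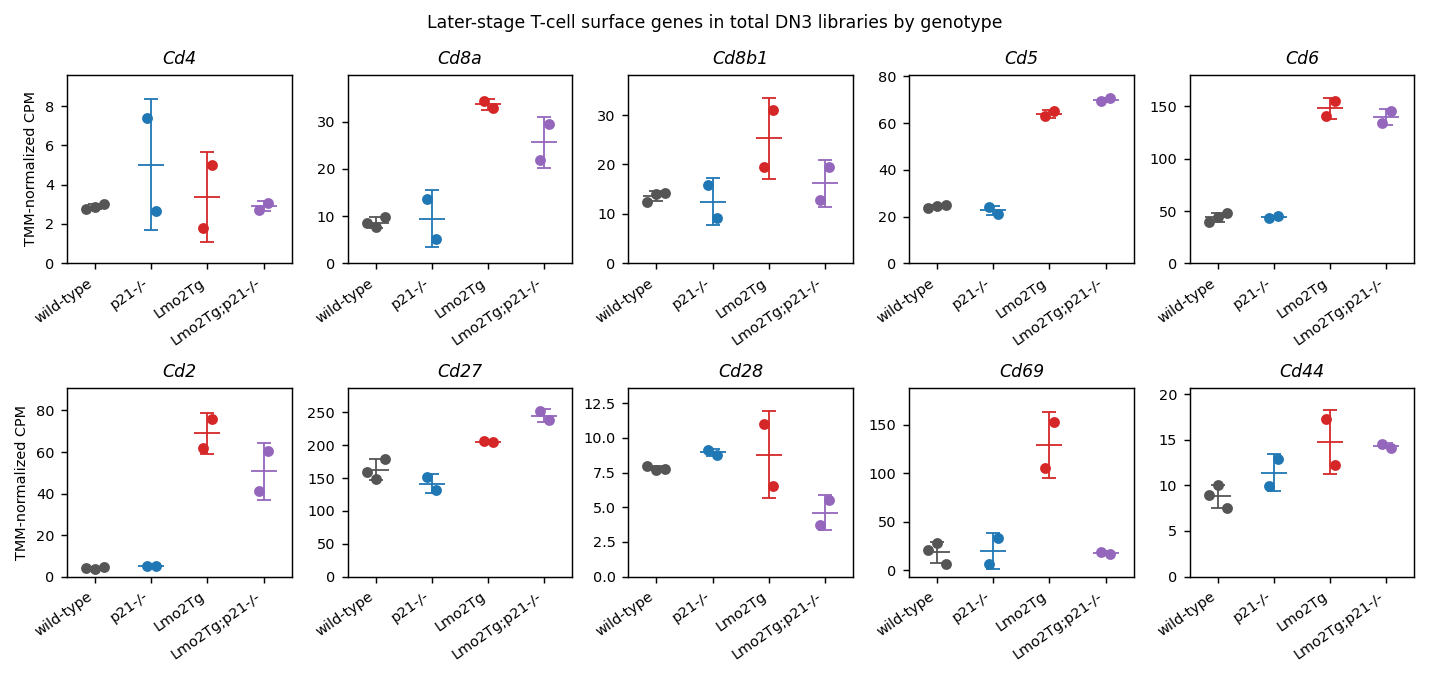
TMM-normalized CPM (vertical axes) of the 10 genes in total DN3 libraries of the 4 genotypes (horizontal axes). Points are libraries, and bars give the mean and SD over 3 wild-type or 2 other libraries. Cd5, Cd6, Cd2, Cd8a and Cd27 are higher in every library with the transgene than in every library without it, while Cd69 is high in the 2 Lmo2Tg libraries only.

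The Lmo2 transgene went with higher levels of most of these genes. In Lmo2Tg against wild-type DN3 cells, 8 of the 10 were called, all 8 higher, when 36.6% of 11840 genes were called in either direction and 19.7% were called higher. Of the 10, 5 also rose more than 2-fold (Cd2, Cd69, Cd8a, Cd6 and Cd5), against 12.0% of all genes called and past 2-fold in either direction. The median log2 change was 1.14 over the members and -0.01 over all genes tested. The libraries of the groups did not overlap for these 8 genes, as for 60.9% of all genes tested, and overlapped for Cd4 and Cd28. In these bulk samples, more cells of a type and more RNA per cell cannot be told apart.

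Cd2, an adhesion molecule that binds CD48 in the mouse, changed most. It was at 4.23, 3.82 and 4.42 CPM in the wild-type replicates 1 to 3, at 61.9 CPM in the Lmo2Tg library of lower depth and at 76.0 CPM in that of higher depth. Every Lmo2Tg value was thus far above every wild-type value, and the fold change was 16.6 (log2 4.05, SE 0.17, adjusted p = 1.31e-07, edgeR). Without p21 the transgene gave the same picture, with Cd2 at 5.28 and 5.06 CPM in the p21-/- and at 41.1 and 60.3 CPM in the Lmo2Tg;p21-/- libraries (9.81-fold, log2 3.29, SE 0.20, adjusted p = 1.3e-06, edgeR). The transgene is itself driven by CD2 sequences, so Lmo2 is given beside Cd2. The Lmo2Tg library with 41.4 CPM of Lmo2 held 61.9 CPM of Cd2, and that with 100.4 CPM of Lmo2 held 76.0 CPM. In the Lmo2Tg;p21-/- libraries 85.4 and 107 CPM of Lmo2 stood beside 41.1 and 60.3 CPM of Cd2, and GFPhi replicate 3, with 285 CPM of Lmo2, held 12.9 CPM of Cd2. Whether any Cd2 counts come from the transgene was not tested.

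Cd5 and Cd6, neighbouring genes for related receptors that tune receptor signalling, rose with little spread. Cd5 was at 23.8, 24.4 and 24.8 CPM in wild-type and at 62.9 and 65.2 CPM in Lmo2Tg libraries, a rise of 2.63-fold (log2 1.40, SE 0.08, adjusted p = 8.76e-07, edgeR). Cd6 went from 39.9, 44.0 and 48.4 CPM to 141 and 155 CPM, a rise of 3.36-fold (log2 1.75, SE 0.09, adjusted p = 5.56e-07, edgeR). Neither gene overlapped between the groups. Against p21-/- libraries, at 24.0 and 21.2 CPM, Cd5 stood at 69.4 and 70.6 CPM in Lmo2Tg;p21-/- (log2 1.63, SE 0.09), and Cd6 went from 43.3 and 45.1 to 134 and 145 CPM (log2 1.66, SE 0.10). The number of Cd6 counts per Cd5 count lay between 1.67 and 2.38 in all 9 libraries.

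Cd8a, the alpha chain through which CD8 binds class I MHC and LCK, rose more than Cd8b1, the beta chain that completes the heterodimer of conventional T cells. Cd8a was at 8.46, 7.63 and 9.80 CPM in wild-type and at 34.5 and 32.9 CPM in Lmo2Tg libraries (3.90-fold, log2 1.96, SE 0.29, adjusted p = 0.000443, edgeR). Cd8b1 was at 12.5, 14.1 and 14.3 CPM against 19.5 and 31.0 CPM (1.86-fold, log2 0.89, SE 0.25, adjusted p = 0.0188, edgeR). Its call rested on single libraries, since it was lost without the Lmo2Tg library of higher depth (log2 0.52, adjusted p = 0.205) and without wild-type replicate 1 (adjusted p = 0.0557). Against p21-/-, at 13.7 and 5.19 CPM, Cd8a was at 21.8 and 29.5 CPM in Lmo2Tg;p21-/- (log2 1.43, SE 0.32, adjusted p = 0.00684, edgeR), and without p21-/- replicate 1 or 2 the log2 change was 2.31 or 0.90. Cd8b1 did not differ beyond its spread there, at 15.9 and 9.11 against 12.8 and 19.6 CPM (log2 0.37, 95% interval -0.26 to 1.01). Cd4, the coreceptor for class II MHC, was at 2.76, 2.86 and 3.02 CPM in wild-type and at 1.78 and 4.99 CPM in Lmo2Tg libraries, which lay on either side of wild-type (log2 0.24, 95% interval -0.77 to 1.25). In p21-/- it was at 7.39 and 2.66 CPM and in Lmo2Tg;p21-/- at 2.71 and 3.08 CPM (log2 -0.80, 95% interval -1.86 to 0.27).

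Cd69 was at 20.6, 27.9 and 6.77 CPM in wild-type and at 105 and 153 CPM in Lmo2Tg libraries. Both Lmo2Tg values exceeded the highest wild-type value, and the fold change was 7.05 (log2 2.82, SE 0.53, adjusted p = 0.00218, edgeR). Cd69 was unevenly expressed without the transgene too, with 6.86 and 33.1 CPM in the 2 p21-/- libraries, between which the Lmo2Tg;p21-/- libraries lay at 19.2 and 17.2 CPM (log2 -0.13, 95% interval -1.53 to 1.28). In GFPhi and GFPlo libraries, which all carried the transgene but were counted in another table, Cd69 was between 13.0 and 37.8 CPM. Levels were not tested between the tables.

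Among the costimulatory receptors, Cd27 rose a little and Cd28 did not pass the test. Cd27 was at 159, 149 and 180 CPM in wild-type and at 206 and 204 CPM in Lmo2Tg libraries (1.26-fold, log2 0.34, SE 0.09, adjusted p = 0.0173, edgeR), a call lost when any of 4 of these 5 libraries was left out (wild-type replicates 1 and 2 and either Lmo2Tg library, adjusted p from 0.0504 to 0.0772). Without p21, Cd27 went from 151 and 131 CPM to 252 and 238 CPM (1.73-fold, log2 0.79, SE 0.10, adjusted p = 0.000242, edgeR). Cd28, which binds CD80 and CD86, was at 7.97, 7.70 and 7.74 CPM in wild-type and at 11.02 and 6.56 CPM in Lmo2Tg libraries (log2 0.17, 95% interval -0.32 to 0.66). Against p21-/-, at 9.15 and 8.80 CPM, it fell to 3.71 and 5.49 CPM in Lmo2Tg;p21-/- (log2 -0.95, SE 0.25, adjusted p = 0.016, edgeR). This call was lost without p21-/- replicate 1, p21-/- replicate 2 or Lmo2Tg;p21-/- replicate 1 (adjusted p = 0.0624, 0.0565 and 0.124). Cd44 was at 8.95, 9.99 and 7.50 CPM in wild-type and at 17.2 and 12.2 CPM in Lmo2Tg libraries (1.67-fold, log2 0.74, SE 0.18, adjusted p = 0.01, edgeR). Without the Lmo2Tg library of lower depth the log2 change was 0.48 and the call was lost (adjusted p = 0.124). Against p21-/-, at 9.97 and 12.8 CPM, Cd44 stood at 14.6 and 14.1 CPM in Lmo2Tg;p21-/- and did not pass (log2 0.33, 95% interval -0.11 to 0.77).

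In the absence of p21 the transgene gave fewer calls among the 10. In Lmo2Tg;p21-/- against p21-/-, 6 were called, when 30.7% of all genes were. Of these, 5 were higher (Cd2, Cd6, Cd5, Cd8a and Cd27, against 16.3% of all genes called higher) and Cd28 was lower, and 4 were past 2-fold (10.4% of all genes). The contrasts with and without p21 share no library, and the same 5 genes were called higher in both, as were 1296 of the 11840 genes tested (10.9%).

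**Figure D2:**
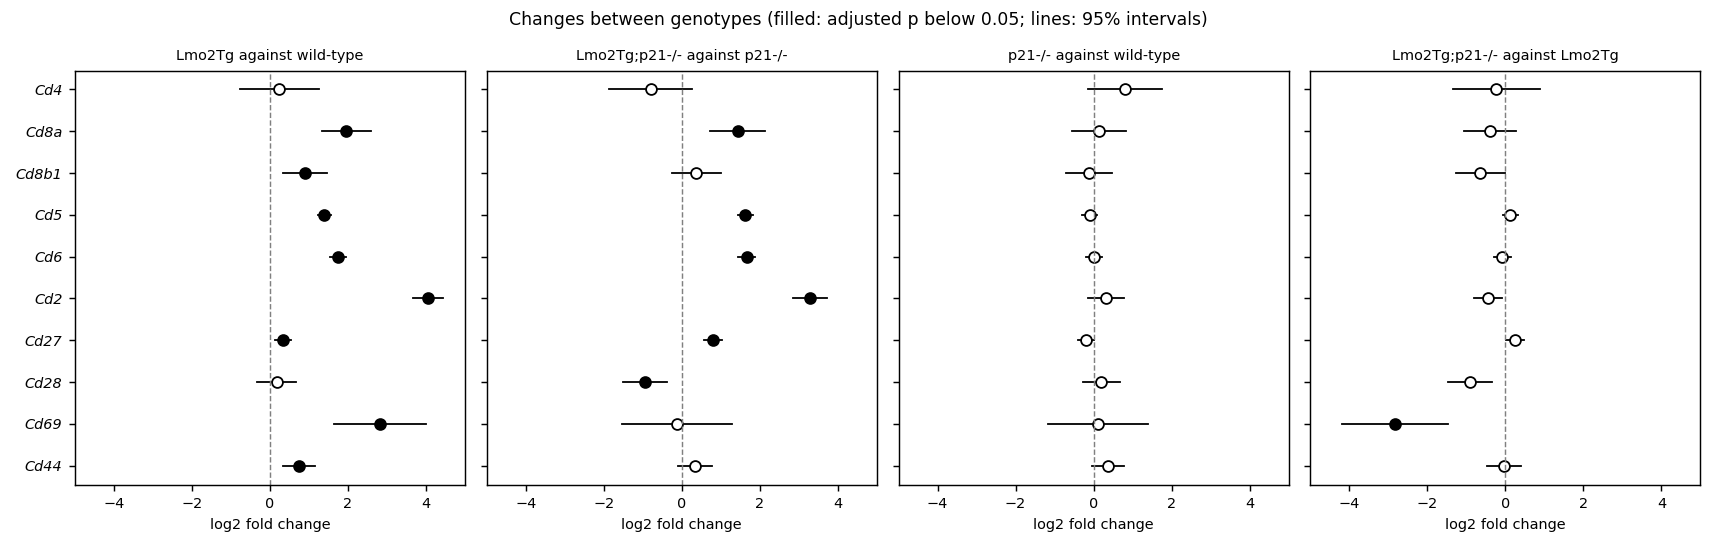
Log2 fold changes (horizontal axes) of the 10 genes (vertical axis) in the 4 comparisons between genotypes, from edgeR. Points are estimates, filled where the adjusted p is below 0.05, and lines are 95% intervals. Cd2, Cd5, Cd6, Cd8a and Cd27 are filled and to the right of 0 in both comparisons with the transgene, and Cd69 is the one filled point among the members in Lmo2Tg;p21-/- against Lmo2Tg.

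Loss of p21 in the absence of the transgene gave no call among these genes. None of the 10 was called in p21-/- against wild-type by edgeR, DESeq2 or limma-voom, none had an unadjusted p under 0.05 in edgeR, and 0.110% of all genes were called. The intervals bound the possible changes tightly for some members only. For Cd6 the log2 change was 0.00 with a 95% interval from -0.21 to 0.21, and for Cd5 it was -0.10 with an interval from -0.29 to 0.08. For Cd69 the interval ran from -1.16 to 1.38 and for Cd4 from -0.14 to 1.76. Replicate 1 of p21-/- held more of all 3 coreceptor transcripts than replicate 2, with 7.39 against 2.66 CPM of Cd4, 13.7 against 5.19 CPM of Cd8a and 15.9 against 9.11 CPM of Cd8b1.

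In mice with the transgene, loss of p21 went with a lower level of Cd69. Of the 10 genes, Cd69 alone was called in Lmo2Tg;p21-/- against Lmo2Tg, when 6.94% of all genes were called and 1.88% were called and past 2-fold. It stood at 105 and 153 CPM in Lmo2Tg and at 19.2 and 17.2 CPM in Lmo2Tg;p21-/- libraries, so the groups were far apart, and it was 7.12-fold lower (log2 -2.83, SE 0.62, adjusted p = 0.0248, edgeR). With Lmo2Tg;p21-/- replicate 1, Lmo2Tg;p21-/- replicate 2 or the Lmo2Tg library of higher depth left out, the log2 change was -2.92, -2.76 and -2.54 and the adjusted p rose to 0.151, 0.0944 and 0.0982. Egr1, an immediate-early factor induced by receptor signalling, moved with it, from 192 and 154 CPM to 21.3 and 28.9 CPM (log2 -2.78, SE 0.43, adjusted p = 0.00627, edgeR), and so did Egr2 (log2 -2.05, SE 0.46, adjusted p = 0.0264, edgeR). Among 15 tested regulators that follow beta-selection, 12 were not called and Bcl6 was higher (log2 0.99, SE 0.20, adjusted p = 0.0184, edgeR). Egr1 and Egr2 were the 2 lower calls. Fos and Nr4a1, also immediate-early genes and named here after their values were seen, were at 156 and 545 CPM and at 392 and 339 CPM in Lmo2Tg, and at 78.5 and 137 CPM and at 27.1 and 32.1 CPM in Lmo2Tg;p21-/- libraries. In wild-type replicate 3, where Cd69 was lowest, Fos was at 3.69 CPM against 107 and 321 CPM in replicates 1 and 2. Egr1 and Nr4a1 were less reduced in that library. Egr1 was at 23.1 CPM against 31.7 and 62.8 CPM, and Nr4a1 at 21.05 CPM against 27.03 and 34.5 CPM. In p21-/- replicate 1, with Cd69 at 6.86 CPM, Fos was at 60.9 CPM against 118 CPM in p21-/- replicate 2. The part of whatever sets these immediate-early genes in the Cd69 values was not tested. Cd28 missed the threshold in the same comparison (log2 -0.92, SE 0.26, adjusted p = 0.0575, edgeR) and passed it with DESeq2 (adjusted p = 0.0249).

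The effect of the transgene was not shown to depend on p21 for any member. In the interaction test, which asks whether the effect of p21 loss differs with and without the transgene, 0 of the 10 genes were called by edgeR, DESeq2 or limma-voom, against 1.38% of all genes in edgeR. An unadjusted p under 0.05 was found for 4 of them in edgeR: Cd69 (log2 -2.94, SE 0.83, adjusted p = 0.108), Cd28 (log2 -1.12, SE 0.34, adjusted p = 0.125), Cd27 (log2 0.46, SE 0.14, adjusted p = 0.133) and Cd2 (log2 -0.76, SE 0.27, adjusted p = 0.179). Without p21-/- replicate 1, the interaction of Cd69 passed (log2 -3.68, adjusted p = 0.0148, edgeR), and without the Lmo2Tg library of higher depth that of Cd28 did (log2 -1.45, adjusted p = 0.0482, edgeR).

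GFPhi cells had divided little during the chase. All 3 GFPhi libraries lay above all GFPlo libraries for 1 member and below them for 1, when 41.3% of all genes did not overlap. Without GFPhi replicate 3, 8 members lay above and 1 below, when 65.6% of all genes did not overlap. For Cd2, Cd44, Cd5 and Cd27, replicate 3 lay below GFPlo where replicates 1 and 2 lay above it. Over all 6 libraries, Cd69 alone was called (higher in GFPhi) when 14.9% of 11581 genes were called and 6.31% were called and past 2-fold. Without GFPhi replicate 3, 8 of the 10 were called, when 41.3% of 11745 genes were. Of these, 7 were higher, against 19.5% of all genes called higher: Cd8b1, Cd2, Cd69, Cd28, Cd44, Cd6 and Cd5. Cd8a was lower, and 3 members passed 2-fold, against 11.5% of all genes.

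**Figure D3:**
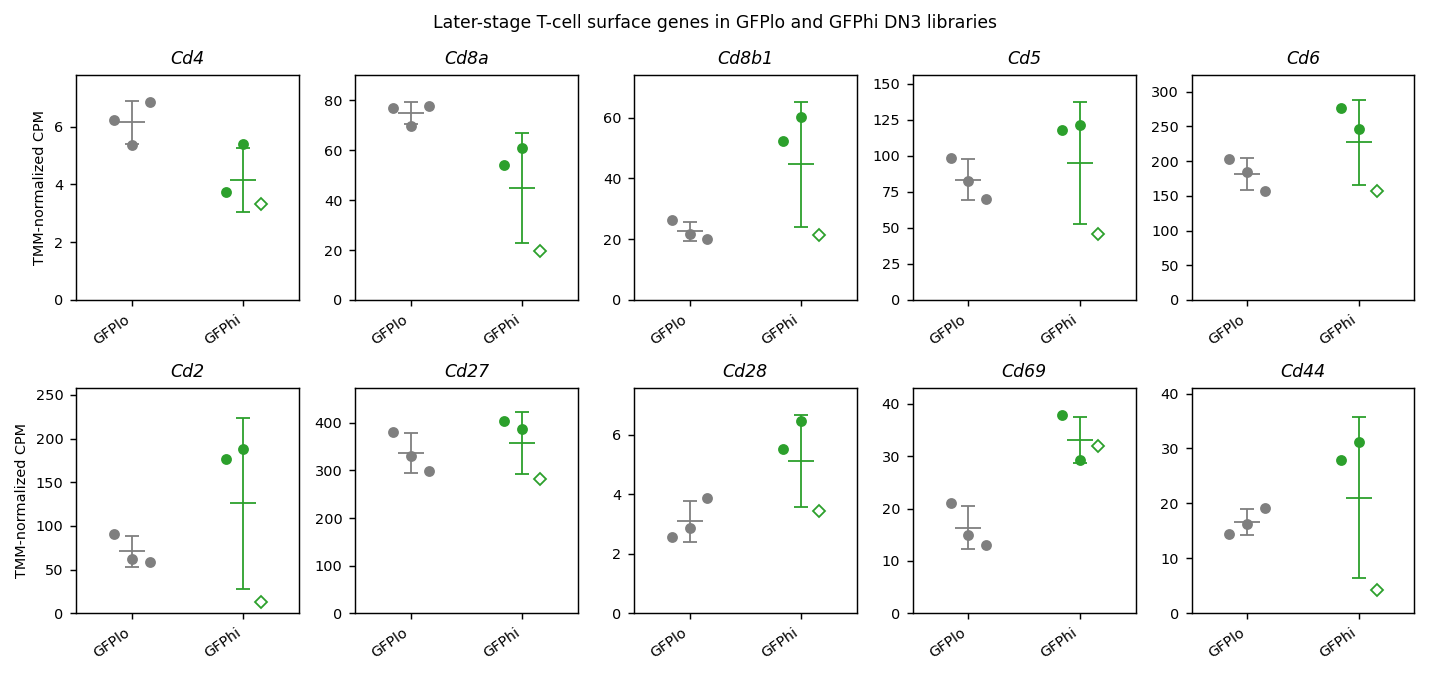
TMM-normalized CPM (vertical axes) of the 10 genes in GFPlo and GFPhi libraries (horizontal axes). Points are libraries, the open diamond is GFPhi replicate 3, and bars give the mean and SD over all 3 libraries of a group. For Cd2, Cd44, Cd8a, Cd5, Cd27 and Cd4 the open diamond lies below every other library, and for Cd69 all 3 GFPhi libraries lie above all 3 GFPlo libraries.

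Cd69 was above GFPlo in all 3 GFPhi libraries, as no other member was. It was at 21.05, 15.02 and 13.04 CPM in GFPlo and at 37.8, 29.3 and 31.8 CPM in GFPhi replicates 1 to 3. The groups did not overlap, as for 41.3% of all genes tested, and Cd69 was 2.02-fold higher in GFPhi (log2 1.01, SE 0.20, adjusted p = 0.0271, edgeR). Without GFPhi replicate 3 the log2 change was 1.04 (SE 0.21, adjusted p = 0.00787, edgeR). The call over 6 libraries was lost without GFPlo replicate 2, GFPlo replicate 3, GFPhi replicate 1 or GFPhi replicate 2 (adjusted p = 0.129, 0.0909, 0.0843 and 0.0502), with the log2 change between 0.87 and 1.09. Egr1 was higher in GFPhi as well (log2 1.90, SE 0.32, adjusted p = 0.0170, edgeR), at 82.4, 72.2 and 37.7 CPM against 14.8 to 21.6 CPM. Nr4a1 was at 55.9, 57.9 and 23.5 CPM in GFPhi replicates 1 to 3 against 27.0 to 36.5 CPM in GFPlo. Fos was at 32.3, 38.2 and 98.5 CPM in GFPhi against 22.7 to 49.0 CPM in GFPlo. Nr4a1 and Fos thus overlapped between the groups.

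The CD8 chains moved in opposite directions in GFPhi replicates 1 and 2, but neither was called over all 6 libraries. Cd8b1 was at 26.2, 21.7 and 20.0 CPM in GFPlo and at 52.2 and 60.3 CPM in GFPhi replicates 1 and 2, but at 21.4 CPM in replicate 3. Its log2 change was 0.98 over all 6 libraries (SE 0.38, adjusted p = 0.129, edgeR) and 1.32 without replicate 3 (SE 0.12, adjusted p = 0.000462, edgeR). Cd8a was at 76.9, 69.8 and 77.6 CPM in GFPlo and at 54.2, 60.8 and 19.7 CPM in GFPhi, below GFPlo in each library. Its log2 change was -0.73 over 6 libraries (SE 0.39, adjusted p = 0.242, edgeR) and -0.37 without replicate 3 (SE 0.08, adjusted p = 0.00979, edgeR). The number of Cd8a counts per Cd8b1 count was 2.94, 3.22 and 3.89 in GFPlo and 1.04, 1.01 and 0.923 in GFPhi libraries, so that on this ratio replicate 3 did not stand apart. The mean log2 ratio differed by -1.75 (GFPhi minus GFPlo), and no test is given, since this ratio was chosen after its values were seen. In total DN3 cells, counted in another table, the ratio was between 0.541 and 0.863 without the transgene and between 1.06 and 1.77 with it. Cd4 was at 6.25, 5.38 and 6.86 CPM in GFPlo and at 3.75, 5.39 and 3.32 CPM in GFPhi libraries (log2 -0.57, 95% interval -1.13 to -0.01, adjusted p = 0.144, edgeR) and was not called without replicate 3 either (log2 -0.42, adjusted p = 0.137, edgeR).

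**Figure D4:**
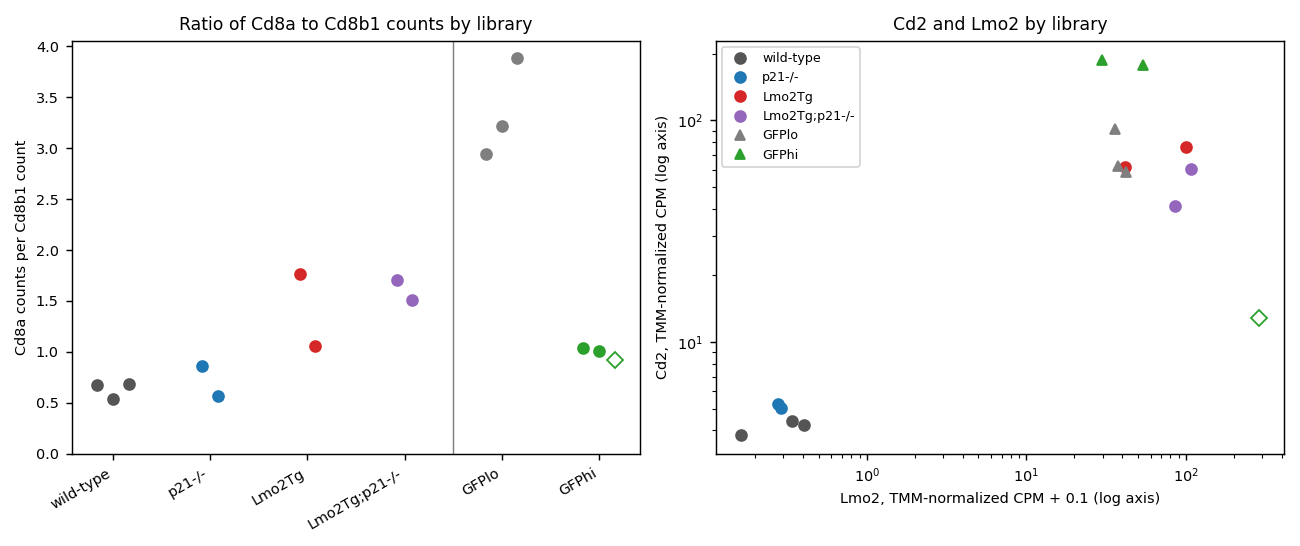
Left, Cd8a counts per Cd8b1 count (vertical axis) in each library of the 6 groups (horizontal axis), with a line between the genotype and the GFP table. Right, Cd2 against Lmo2 in TMM-normalized CPM per library (both axes logarithmic, 0.1 added to Lmo2), triangles for the GFP table, circles for the genotypes and an open diamond for GFPhi replicate 3. All 3 GFPlo ratios lie between 2.94 and 3.89, and GFPhi replicate 3 has the highest Lmo2 and a low Cd2.

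Cd2 varied most between GFPhi libraries. It was at 91.3, 62.1 and 58.7 CPM in GFPlo, at 177 and 188 CPM in GFPhi replicates 1 and 2, and at 12.9 CPM in GFPhi replicate 3. The log2 change was 0.83 over 6 libraries, with a 95% interval from -1.23 to 2.90, and 1.38 without replicate 3 (SE 0.18, adjusted p = 0.00153, edgeR). Cd44 showed the same split, at 14.5, 16.3 and 19.2 CPM in GFPlo and at 27.8, 31.1 and 4.17 CPM in GFPhi libraries (log2 0.34 over 6, 95% interval -1.27 to 1.94, and 0.83 without replicate 3, SE 0.13, adjusted p = 0.00303, edgeR). Cd44 lies on chromosome 2, whose genes were lower in GFPhi as a whole, with a median log2 change of -0.18 over 923 genes, so its values ran against those of its chromosome in replicates 1 and 2. Cd5 was at 98.7, 82.4 and 69.8 CPM in GFPlo and at 118, 121 and 46.0 CPM in GFPhi libraries, and Cd6 at 204, 185 and 157 CPM against 277, 247 and 158 CPM. The median log2 change of the 406 genes tested on chromosome 19, which carries both, was 0.11. Neither was called over 6 libraries (log2 0.19, SE 0.37, and 0.32, SE 0.22), and both were higher without replicate 3 (log2 0.52, SE 0.13, and 0.53, SE 0.11, adjusted p = 0.0182 and 0.00911, edgeR). Cd28 was at 2.55, 2.86 and 3.86 CPM in GFPlo and at 5.51, 6.45 and 3.43 CPM in GFPhi libraries (log2 0.73, adjusted p = 0.145 over 6, and 0.95, adjusted p = 0.0121 without replicate 3, edgeR). Cd27 was at 298 to 380 CPM in GFPlo and at 403, 388 and 282 CPM in GFPhi libraries and was not called in either fit (log2 0.09 and 0.24).

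**Figure D5:**
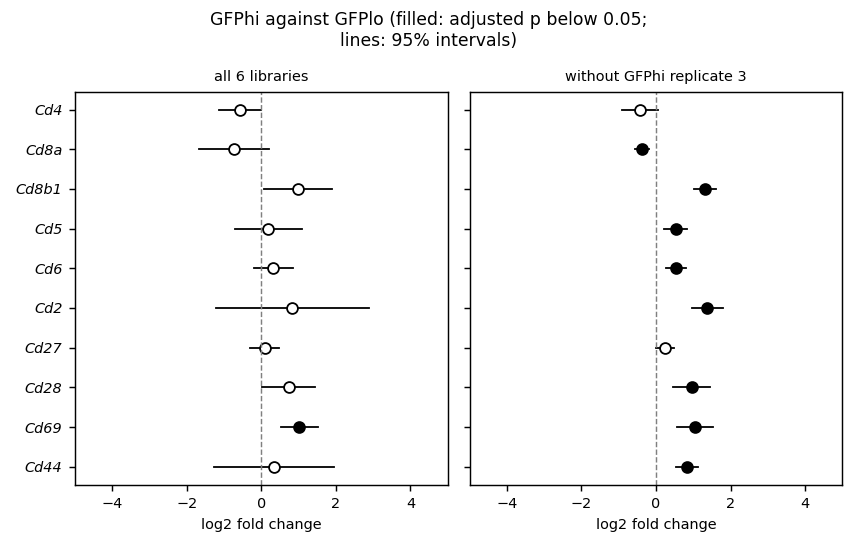
Log2 fold changes (horizontal axes) of the 10 genes (vertical axis) in GFPhi against GFPlo from edgeR, over all 6 libraries (left) and without GFPhi replicate 3 (right). Points are filled where the adjusted p is below 0.05, and lines are 95% intervals. One point is filled on the left, Cd69, and 8 are filled on the right, where the interval of Cd2 shrinks from -1.23 to 2.90 on the left to 0.96 to 1.80.

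Other genes of T-cell development gave a mixed picture beside the members. Among 38 other late surface proteins tested, 15 rose in Lmo2Tg against wild-type, 13 fell and 10 did not pass, with a median log2 change of -0.15. The integrin chain Itgb7 (log2 3.85), Slamf1 (2.79), Cd53 (1.82) and Cd7 (3.17) were among those that rose, and the homing receptor Ccr9 (-3.63), Cd3g (-1.56), the integrin chain Itgae (-2.61) and Thy1 (-0.78) among those that fell. Of 12 DN3 markers, 7 fell, with the recombinase genes Rag2 (-2.33) and Rag1 (-1.10), Notch3 (-1.13) and Cd3e (-0.55) among them, while Dtx1 (0.90) and Hes1 (1.21) rose. Of 15 regulators that follow beta-selection, 6 rose and 4 fell, the receptor-induced Egr1 (2.14) among the former and Id3 (-0.77) among the latter. In GFPhi against GFPlo, 4 of 14 of these regulators rose over 6 libraries, among them Egr1 (log2 1.90), Ets2 (0.37) and Egr2 (1.35), and none fell, and 6 of 39 other late surface proteins rose and 3 fell. Without GFPhi replicate 3 these counts were 8 and 0 of 14, and 15 and 8 of 39.

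Of 17 regulators of Cd4 and Cd8 tested, 3 rose and 4 fell in Lmo2Tg cells. Runx3, which represses Cd4 and activates Cd8 in the CD8 lineage, rose (log2 1.19, SE 0.11, adjusted p = 1.7e-05, edgeR), and the chromatin remodeller Smarca4 (-0.87), Satb1 (-0.47) and Bcl11b (-0.49) fell. In GFPhi cells over 6 libraries 1 of these 17 was called, Satb1 (log2 -0.48), which was lower, and without replicate 3, 3 were higher and 2 lower. Among 27 ligands and signalling partners of the members, 11 rose and 4 fell in Lmo2Tg cells. The adaptor Grb2 (log2 0.91), the kinase Zap70 (0.94), Msn, which links CD44 to actin (0.99), and S1pr1, the exit receptor that CD69 holds inside the cell (4.95), rose. Alcam, the ligand of CD6 (-1.59), the ligase Cblb (-0.70) and the kinase Lck (-0.37) fell.

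Markers of other cells were read beside these results. Of 8 tested markers of DN1 and DN2 progenitors, the stages before DN3, 6 rose and 2 fell in Lmo2Tg cells. Hhex went from 2.36 to 3.69 CPM in wild-type to 69.9 and 86.6 CPM. Lyl1 (log2 3.77) was also among those that rose, and those that fell were Bcl11a (-1.23) and Mef2c (-0.998). The paper counts Hhex, Lyl1 and c-Kit (Kit), all in this list, among the downstream targets of Lmo2. Whether the rise of these markers reflects DN1 or DN2 cells was not tested. Their summed level went from 174 to 215 CPM in wild-type to 448 and 666 CPM in Lmo2Tg libraries. The summed level of 10 B-cell markers was 62.1 to 66.4 CPM in wild-type and 29.7 and 31.7 CPM in Lmo2Tg libraries, carried mainly by Cd79b and Blk. In GFPhi libraries that sum was 49.5 to 87.0 CPM against 41.4 to 45.4 CPM in GFPlo, and 6 of 9 tested markers rose over 6 libraries and 8 of 10 without replicate 3. Ms4a1 was at 1.87, 7.58 and 2.23 CPM in GFPhi and at no more than 0.0322 CPM in GFPlo libraries. In Lmo2Tg cells, proliferation genes gave 0 higher and 3 lower calls of 10 tested, mature T-cell genes 3 and 2 of 7, gamma-delta and innate-like T-cell genes 3 and 3 of 6, myeloid genes 2 and 1 of 8, NK and ILC genes 0 and 1 of 3, dendritic genes 1 and 1 of 2, erythroid genes 1 and 0 of 6 and thymic epithelial genes 1 and 1 of 2. In Lmo2Tg;p21-/- against p21-/-, where 6 of the 10 members were called, all 10 proliferation genes were lower (median log2 change -0.52), and DN1 and DN2 markers gave 6 higher and 2 lower calls of 8, B-cell genes 0 and 2 of 5, mature T-cell genes 3 and 1 of 7, gamma-delta genes 2 and 3 of 6, myeloid genes 3 and 0 of 8, NK and ILC genes 1 and 1 of 3, dendritic genes 0 and 1 of 2, erythroid genes none of 6 and thymic epithelial genes 1 and 1 of 2. In GFPhi cells over 6 libraries, gamma-delta genes gave 2 higher calls of 5 tested, NK and ILC genes 1 of 4 and thymic epithelial genes 1 of 2, DN1 and DN2 genes gave 1 lower call of 9, and the proliferation, mature T-cell, myeloid, dendritic and erythroid genes tested (10, 6, 3, 1 and 6) gave none. Without replicate 3, gamma-delta genes gave 3 higher and 0 lower calls of 5, NK and ILC genes 3 and 0 of 4, thymic epithelial genes 2 and 0 of 2, DN1 and DN2 genes 3 and 3 of 9, proliferation genes 0 and 1 of 10, mature T-cell genes 2 and 2 of 6, myeloid genes 1 and 1 of 5, dendritic genes 0 and 1 of 2 and erythroid genes none of 6. The summed level of the DN1 and DN2 markers was 992 to 1072 CPM in GFPlo, 704 and 713 CPM in GFPhi replicates 1 and 2 and 322 CPM in replicate 3. Cd2, Cd5, Cd44, Cd8b1 and Cd28 were, like the B-cell sum, highest in GFPhi replicate 2. Cd6, Cd27 and Cd69 were highest in GFPhi replicate 1, and Cd8a and Cd4 in GFPlo replicate 3. In GFPhi replicate 3 the B-cell sum was 64.8 CPM. The part of such cells in the levels of the 10 members was not tested.

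Across the 9 genotype libraries, Cd5, Cd6 and Cd2 had nearly one profile. Pearson's r of log2 CPM was 0.990 between Cd5 and Cd6, 0.993 between Cd6 and Cd2 and 0.980 between Cd5 and Cd2, and Cd8a followed at 0.920 to 0.933 with these 3. All points share the division into libraries with and without the transgene, so these values describe that split, and 1030, 927 and 895 genes reached an r above 0.9 with Cd5, Cd6 and Cd2. The genes most like Cd5 were Grb2, Ski and Ppp1r18 (each r 0.995), those most like Cd6 were Mmp17 (0.999), Mum1l1 and Pcyt1a, and those most like Cd2 were Igsf3, Pcyt1a and Faxc (0.994). Cd8a was most like 1110008P14Rik (0.966), Ccdc84 and Gfra2, Cd8b1 like Kcng3 (0.928), Usp30 and Ddx54, and Cd27 had Rras (0.982) and Cgrrf1 among its nearest. Cd69 was most like Klf11 (0.989), Sertad1 (0.987) and Nfkbiz (0.984), with 162 genes above 0.9. Cd44 was most like Ahnak (0.976), Naip5 and Capn7, and Cd28 like Igsf23 (0.950), Smoc1 and Pde12. Cd4 stood alone, with no gene above 0.9 and Gngt2 (0.886), Ripk2 and Lrrc9 as the nearest.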

How the data were processed

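RNA-seq was done on poly-A RNA of sorted DN3 thymocytes. For each experiment the authors deposited one file of raw counts, in which every protein-coding gene has its number of reads in each library, and per the submitters' processing notes STAR 2.4.2a, featureCounts, limma and mm10 were used. How strand was set is not given in the sources used here and may differ between the tables, so tests stayed within a table. Among the genotype columns, 1 could not be assigned to a sample and was not used, and 1 sample (p21-/- replicate 3) had no column. Lmo2Tg columns, whose names are shared with GFPlo descriptions, were used only as a group and named by depth.

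Counts were filtered with filterByExpr (minimum count 10, total 15), scaled by TMM and tested with edgeR 4.0.16 (R 4.3.3) with no covariate. Genotype contrasts came from a fit of all 9 libraries. Alternatives were RLE factors, DESeq2 1.42.0, limma-voom 3.58.1, other filters, factors without chromosomes 2 and 15, only the groups compared, a replicate block and leaving out each library. The fits were tested on simulated data. Positions are from GENCODE M21, which matched 98.2% of gene identifiers.

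The 10 members and all gene lists were chosen with earlier results of these data known. Named from each list were up to 4 called genes with the smallest p per direction and contrast, of which examples are printed, and for likeness the 3 genes with the highest r. Some genes that these rules name are not reported here. Lists of dendritic, myeloid, NK, erythroid, gamma-delta, mature T, epithelial and proliferation genes were also computed. Every pair of replicates differed by more than sampling noise. P-values measure the spread between these libraries, which may be technical.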

Additional observations from a re-analysis of the deposited data

How the results depend on the processing

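Among the values recomputed, no call changed its direction under any alternative run. RLE factors, scaling without chromosomes 2 and 15 and fitting only the groups compared left every count of called members within 1.5 times the value reported. For Lmo2Tg;p21-/- against Lmo2Tg the count went from 1 to 2 with DESeq2, with no filter and with at least 1 CPM in every library, and from 0 to 1 when single libraries were left out. For the interaction it went from 0 to 2 with no filter and was 0 to 1 with single libraries left out. For GFPhi against GFPlo it went from 1 to 2 with DESeq2 and was 0 to 8 with single libraries left out, 8 without GFPhi replicate 3. Log2 changes that were not called crossed 0 as follows, and the cause was not tested. With limma-voom, Cd69 was at 0.30 in Lmo2Tg;p21-/- against p21-/-, Cd8a at -0.0055 and Cd69 at -0.082 in p21-/- against wild-type, and Cd44 at -0.085 in GFPhi against GFPlo, and with no filter Cd6 was at -0.0041 in p21-/- against wild-type. With single libraries left out, Cd4 ranged from -0.70 to 0.79 and Cd28 from -0.25 to 0.50 in Lmo2Tg against wild-type. Cd4 ranged from -1.35 to 0.13 and Cd69 from -0.86 to 1.40 in Lmo2Tg;p21-/- against p21-/-. In p21-/- against wild-type, Cd4 ranged from -0.12 to 1.35, Cd8a from -0.74 to 0.67, Cd8b1 from -0.59 to 0.22, Cd6 from -0.064 to 0.072 and Cd69 from -1.42 to 0.84. Cd4 ranged from -0.79 to 0.71 and Cd44 from -0.26 to 0.22 in Lmo2Tg;p21-/- against Lmo2Tg, Cd8a from -1.06 to 0.35 in the interaction, and Cd5 from -0.026 to 0.52 and Cd44 from -0.058 to 0.83 in GFPhi against GFPlo.

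With the replicate number as a replicate block, 6 members were called in Lmo2Tg;p21-/- against p21-/-, 0 in p21-/- against wild-type and 1 in GFPhi against GFPlo, as without it, and Cd69 moved to 0.069 and -0.44 (log2) in the first 2 of these. The paper describes independent cohorts of mice for GFPhi and GFPlo cells but does not match library numbers to them. Same-numbered GFPhi and GFPlo libraries did not deviate together (r from -0.08 to 0.10), and numbers were not taken to pair samples. With so few libraries, and GFPhi replicate 3 apart from its group, these correlations cannot show that pairing was absent. No block could be fitted for contrasts with Lmo2Tg, whose columns carry no number. With 2 libraries in most groups, changes in Cd4, with as few as 24 counts, and in Cd69 could be estimated only within wide intervals.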
